A study of Mus musculus with 14 samples.

Results

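The enzymes of the tricarboxylic acid (TCA) cycle and of the pyruvate dehydrogenase step that feeds it were examined as 34 genes, chosen by function from their symbols. All 34 were measured among 13219 gene symbols in AAV-treated hearts, and 9 of the 34 appeared among the 1230 symbols listed for CTRP9-deficient hearts. C1qtnf9 encodes CTRP9, a factor that endothelial cells of the heart release to their neighbours. The question was whether its loss or its overexpression changed the transcripts of this pathway during high-fat diet feeding.

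RNA of whole mouse hearts was sequenced in 4 groups. The first comparison set 4 hearts of homozygous CTRP9 knock-out mice (KO) against 3 hearts of wild-type littermates (WT). The second set 4 wild-type hearts given AAV-CTRP9 against 3 wild-type hearts given AAV-Luc, a vector for Renilla luciferase. The study's methods describe the mice as male C57BL/6J. All 14 were on a high-fat diet with 60 kcal-% fat for 12 weeks, from an age of 7 to 9 weeks. No group on a control diet enters these data. Xist, a transcript typical of female cells, was listed as lower in KO than in WT hearts (log2 fold change -4.78, SE 1.27). Its antisense transcript Tsix was also listed as lower (-2.16, SE 0.93). The sex of each heart was not tested. All mice were fasted for some hours before the hearts were taken. Both AAV9 vectors carried a troponin T promoter that drives expression in cardiomyocytes, so CTRP9 was overexpressed in a cell type that is not its main source. Each mouse in the vector experiment received 1e+12 vector genomes into the tail vein at that age.

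In the TCA cycle, citrate synthase joins acetyl-CoA to oxaloacetate, and successive dehydrogenases then release carbon dioxide and load electrons onto NADH and FADH2 for the respiratory chain. The pyruvate dehydrogenase complex makes the acetyl-CoA from pyruvate. Its kinases (Pdk genes) phosphorylate and inactivate it, and its phosphatases (Pdp genes) reactivate it, which sets how much glucose-derived carbon the heart oxidises in place of fatty acids. Pdk4 is a well-known target of the fatty acid-sensing PPAR receptors.

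The transcript that the deletion removes was at 0, 1, 0 and 2 reads of C1qtnf9 in the KO hearts, against 481, 497 and 498 reads in the WT hearts. It was at 109, 67.0, 44.3 and 59.6 CPM (read counts scaled to a common library total) in AAV-CTRP9 hearts, against 26.2, 18.8 and 16.0 CPM in AAV-Luc hearts. Library totals were 15587701 to 18959587 reads in KO and 14978278 to 18377715 reads in WT hearts, and 23626917 to 28509220 scaled reads in AAV-CTRP9 and 26342180 to 30262264 in AAV-Luc hearts. All 7 cardiomyocyte markers were measured in the AAV hearts, at a summed 18118 to 18887 CPM in AAV-CTRP9 and 16018 to 17785 CPM in AAV-Luc hearts. Since whole hearts were sequenced, fewer cells of a type and less RNA per cell cannot be told apart. The AAV-Luc hearts Luc_614 and Luc_624 stood apart. In Luc_614, genes of high GC content tended to lie above their mean over the hearts (Spearman's rho = 0.52 over 13219 genes, as a description), whereas rho was -0.27 to -0.11 in the remaining 6 hearts. In Luc_624, erythroid markers summed to 594 CPM, whereas AAV-CTRP9 hearts had 90.5 to 142 CPM, Luc_614 had 112 CPM and Luc_615 had 210 CPM. Values without each of these hearts are given beside the results that rest on them.

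In KO hearts, 7 of the 34 genes were listed as higher and 2 as lower than in WT hearts. The deposited table holds only transcripts with p below 0.05 in the comparison made by the authors, so the other 25 genes carry no value there and nothing can be said of their direction. Csl, Pdk1, Ogdhl, Suclg2, Dld, Sdhd and Pdha1 were listed as higher, and Ogdh and Pdk2 as lower. As background, 3.34% of the 13219 symbols measured in AAV hearts were listed as higher in KO and 5.33% as lower. Among the 5801 symbols with a mean of at least 10 CPM, where all 34 genes lie, these shares were 4.76% and 9.53%. The 7 higher genes are 20.6% of the 34, and the 2 lower genes are 5.88%. The share listed as higher was thus above its background, whereas the share listed as lower was close to it or below it. These shares are descriptions with no test. Among the 9 genes, 8 had KO and WT hearts that did not overlap. Of the 1230 listed symbols, 479 were listed as higher and 751 as lower. KO and WT hearts did not overlap for 345 in the higher direction (28% of the 1230). They did not overlap for 478 in the lower direction (38.9% of the 1230). Since listing itself used this contrast, nothing further is read from this separation.

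The gene with the widest difference was Csl, citrate synthase like, a copy of the citrate synthase gene Cs. Its normalized count, which is the read count divided by the size factor of the library, was 291, 254, 290 and 303 in KO hearts, against 183, 169 and 235 in WT hearts. Every KO heart lay above every WT heart, and the mean was 45.5% higher (log2 fold change 0.54, SE 0.13). At 8.76 ± 0.60 RPKM (reads per kilobase of transcript, scaled to the library total, SD, n = 4) in KO and 5.83 ± 1.07 RPKM (n = 3) in WT hearts, it was a weakly expressed member. Cs itself was not listed, and the part of reads from Cs in the values of Csl was not tested.

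Csl lies on chromosome 10 (mm10, 99757706 to 99759658, minus strand) in a single exon, whereas Cs spans 11 exons of the same chromosome (128337734 to 128362479, plus strand). Their coding sequences were 92.74% identical over 1392 aligned bases, with a longest identical run of 92 bases. The pair is shown because reads from such runs cannot be assigned to either gene by sequence alone. The stretch below is identical in both genes, at coding bases 1055 to 1114. The other 2 lines show coding bases 7 to 66, the window with the most differences, 11 of 60 bases, in capitals. The sequences are from GENCODE M21 on mm10.
Csl and Cs, shared: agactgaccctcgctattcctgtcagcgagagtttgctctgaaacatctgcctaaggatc
Csl: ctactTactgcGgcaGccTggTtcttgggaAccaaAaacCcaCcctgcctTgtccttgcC
Cs: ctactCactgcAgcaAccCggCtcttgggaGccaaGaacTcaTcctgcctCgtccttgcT

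Over the whole transcript, 115 of the 1904 stretches of 50 bases in Csl (6.04%) also occur in Cs. The remaining stretches of this length differ from Cs, but the counts do not show which stretches the reads came from. The sources used here do not give the rule for reads that fit several genes. In AAV-CTRP9 hearts, Csl was at 5.58, 5.90, 5.41 and 5.72% of the level of Cs per kilobase. In AAV-Luc hearts it was at 5.75, 5.58 and 4.94%. These ratios of level and the 6.04% of shared stretches are different measures, and no conclusion is drawn from setting them side by side. The part of Cs reads in the values of Csl was not tested, so the level of Csl apart from Cs is not known. The exon of Csl also overlaps 61 bases of the antisense gene Gm35206, and although the study's methods name a strand-specific mRNA library, they do not say whether strand was used in the counting.

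The 2-oxoglutarate dehydrogenase complex, which converts 2-oxoglutarate to succinyl-CoA, was the enzyme with the most listed members, at 3 of 4. Dld encodes its E3 subunit, which is shared with pyruvate dehydrogenase. Dld had normalized counts of 3272, 3106, 2992 and 3197 in KO hearts, against 2836, 2794 and 2587 in WT hearts, 14.7% higher on average with no overlap. The other listed members encode E1 proteins. Ogdhl, an E1-like gene best known from brain, had 2161, 2033, 2129 and 2010 normalized counts in KO hearts, against 1577, 1789 and 1942 in WT hearts. These groups did not overlap, although the highest WT heart was close to the lowest KO heart. Ogdh, the main E1 gene, was listed in the other direction. It had 40002.6, 34277.1, 36676.5 and 37215.7 normalized counts in KO hearts, against 43161.1, 41160.3 and 38619.7 in WT hearts. The mean was 37043 ± 2350 in KO hearts (SD, n = 4) and 40980 ± 2276 in WT hearts (n = 3). Ogdh was the only listed member with overlapping groups. Its log2 fold change was -0.15 (SE 0.07). It was 0.0049 when the libraries were scaled by upper quartiles of the listed genes, which moved all listed genes upward alike.

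The ratio of 2 genes within a heart does not depend on how that heart was scaled. Per kilobase, Ogdh exceeded Ogdhl by 10.3, 9.43, 9.63 and 10.3 times in KO hearts, against 15.3, 12.9 and 11.1 times in WT hearts. Every KO ratio lay below every WT ratio, but both genes were listed on this contrast in opposite directions, so this separation is only a description. The fourth gene of the complex, Dlst (the E2 subunit), was not listed.

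Other listed cycle genes showed smaller differences. Suclg2 encodes the subunit that makes succinyl-CoA synthetase specific for GDP. It had 584, 544, 541 and 558 normalized counts in KO hearts, against 528, 465 and 448 in WT hearts, 15.9% higher on average. These groups lay just apart, but 21.82% of the 50-base stretches of Suclg2 also occur in the gene Gm15163. Sdhd, a membrane anchor of succinate dehydrogenase, had 2486, 2648, 2743 and 2674 normalized counts in KO hearts, against 2329, 2357 and 2298 in WT hearts. Its WT hearts were tightly grouped (SD 29.5), and all 4 KO hearts lay above them, at a mean 13.3% higher. None of the 5 isocitrate dehydrogenase genes, the 2 malate dehydrogenase genes or fumarase (Fh1) was listed.

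At the pyruvate dehydrogenase complex, the E1 alpha subunit Pdha1, which carries the phosphorylation sites, was higher in KO hearts. Pdha1 had 8744, 8482, 8136 and 8242 normalized counts in KO hearts, against 7795, 7005 and 7452 in WT hearts, 13.3% higher on average with no overlap. Its exons overlap Map3k15 on the opposite strand over 603 bases. The other subunits, Pdhb, Dlat and Pdhx, were not listed.

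The kinases Pdk1 and Pdk2 differed in opposite directions. Pdk1 had 2262, 2218, 2247 and 2268 normalized counts in KO hearts, against 1860, 1989 and 1871 in WT hearts. The KO hearts were within a narrow band (SD 22.1) above all WT hearts, at a mean 17.9% higher (log2 fold change 0.24, SE 0.06). Pdk2 had 7963, 6881, 7359 and 7259 normalized counts in KO hearts, against 10132, 9107 and 8247 in WT hearts. All KO hearts lay below all WT hearts, and the log2 fold change was -0.31 (SE 0.08). Pdk2 was the more abundant kinase of the pair in every heart. The ratio of Pdk2 to Pdk1 per kilobase was 8.09, 7.13, 7.53 and 7.36 in KO hearts, against 12.5, 10.5 and 10.1 in WT hearts. Each KO ratio lay below each WT ratio. Since both kinases were listed on this contrast in opposite directions, nothing further is read from this separation. Pdk4, the phosphatase Pdp1 and its regulatory subunit Pdpr were not listed.

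**Figure D1:**
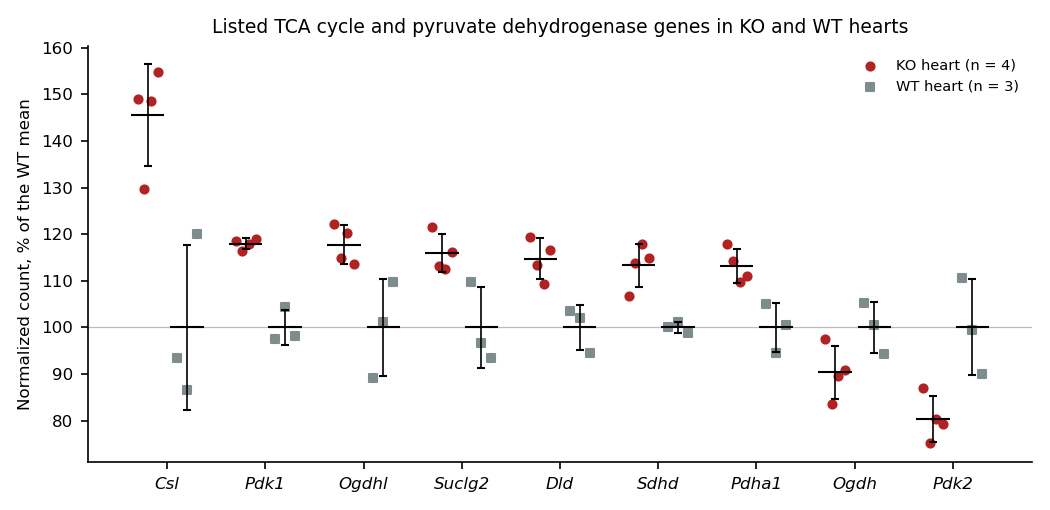
Normalized counts of the 9 listed genes in each KO heart (circles, n = 4) and WT heart (squares, n = 3), as a percentage of the WT mean of the gene. Bars are the mean and SD. KO hearts lay above WT hearts for 7 genes and below them for Pdk2, and the groups of Ogdh overlapped.

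**Figure D2:**
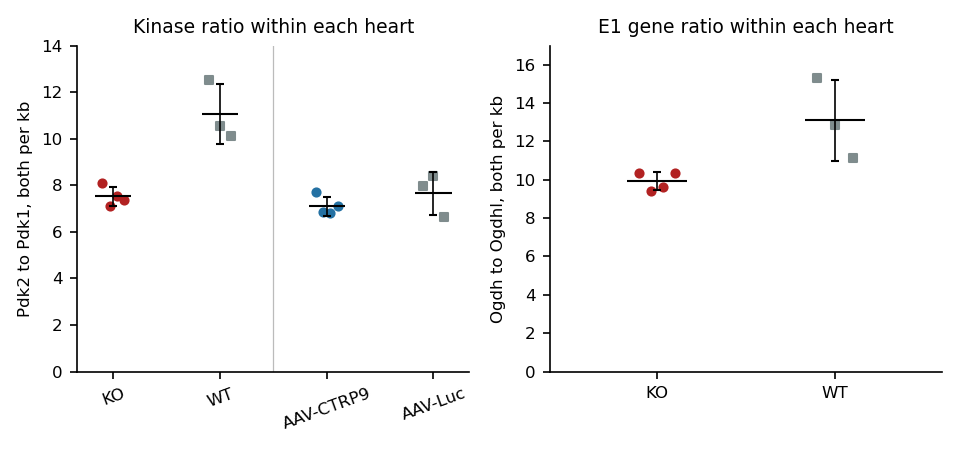
Ratios of 2 genes within each heart, both per kilobase, with the mean and SD of each group. On the left is Pdk2 to Pdk1 in KO, WT, AAV-CTRP9 and AAV-Luc hearts, where the vertical line separates tables that were made separately. On the right is Ogdh to Ogdhl in KO and WT hearts. Ratios were lower in all 4 KO hearts than in all 3 WT hearts, and the AAV groups overlapped.

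The size of these KO differences depended on scaling. Size factors computed from the listed genes alone (DESeq2) moved the median log2 fold change of all listed genes by 0.12, and upper quartile factors moved it by 0.15. The genes that differed also differed in base composition. The median GC content was 46.4% for the 7 higher genes and 54.7% for the 2 lower genes, and it was 46.4% for all 441 higher and 55.2% for all 705 lower symbols listed and also measured in AAV hearts. The part of base composition in the KO differences was not tested. Of the 7 cardiomyocyte markers, Myh6, Actc1 and Pln were listed, 1 of the 3 as higher. Beside them, 3.34% of all symbols measured in AAV hearts were listed as higher and 5.33% as lower. The fibroblast marker Col1a1, the smooth muscle marker Acta2 and the atrial marker Nppa were listed as lower, and no endothelial, macrophage or erythroid marker was listed. The part of other cell types was not tested.

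In AAV hearts all 34 genes were measured, which places the pathway in order of level. Per kilobase of transcript, Idh2 (the mitochondrial NADP-dependent isocitrate dehydrogenase), Mdh2 (mitochondrial malate dehydrogenase) and Ogdh were highest, at a mean of 285, 284 and 269 CPM per kb over the 7 hearts, followed by Cs at 212 CPM per kb. The lowest were Aco1, the cytosolic aconitase that also binds iron-responsive RNA elements, at 3.38 CPM per kb, Pdp1 at 3.83 CPM per kb and pyruvate carboxylase (Pcx) at 5.59 CPM per kb. Among the kinases the order was Pdk2 at 112, Pdk4 at 85.1 and Pdk1 at 15.3 CPM per kb. The order of Pdk2 and Pdk4 differed between hearts. Pdk4 was the most variable of the 34 genes (SD of log2 CPM 0.52 over 7 hearts), followed by Mpc1 (0.37), a subunit of the mitochondrial pyruvate carrier. Pdha1 was the least variable (0.06).

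None of the 34 genes passed an adjusted p of 0.05 between AAV-CTRP9 and AAV-Luc hearts with limma, where 2 of 13219 symbols did (0.0151%). The overexpressed gene C1qtnf9 itself did not pass (log2 fold change 1.73, limma adjusted p = 0.106). Missing this threshold therefore does not show that a gene was unchanged. At an unadjusted p below 0.05, Pdp1, Dld and Idh2 were higher, 8.82% of the 34 genes against 4.3% of all symbols. Pdk4 was lower, 2.94% against 4.36% of all symbols. Both shares rest on few genes, and no member is called changed. With edgeR's quasi-likelihood test on the recovered reads 3 of the 34 genes had an unadjusted p below 0.05, and with DESeq2 2 did, with none past the adjusted threshold. The log2 fold change was above 0 for 27 of the 34 genes (79.4%) and for 57.0% of all symbols, with a median of 0.07 for the 34 genes and 0.03 for all symbols. Without Luc_624, 12 of the 34 were above 0 and the median was -0.05, so no direction is given for the pathway.

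Luc_624 carried most of that difference. It held the lowest value of the 7 hearts for 22 of the 34 genes, against 23.4% of all symbols that were lowest in it. Its median deviation from the gene means was -0.23 on the log2 scale, with 28 genes below the mean, whereas the medians of the other 6 hearts were between 0.02 and 0.09. The deviation was -0.25 when the trend with GC content and length was removed. The genes with low values in Luc_624 came from every step of the cycle. Mdh2 was at 432, 420, 411 and 414 CPM in AAV-CTRP9 hearts, against 450, 432 and 337 CPM in AAV-Luc hearts. Cs was at 652, 645, 613 and 593 CPM in AAV-CTRP9 hearts, against 660, 662 and 522 CPM in AAV-Luc hearts. In both genes the AAV-CTRP9 hearts lay between Luc_624 and the other AAV-Luc hearts. The high erythroid marker level of this heart is given above, and its part in the low pathway values was not tested.

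**Figure D3:**
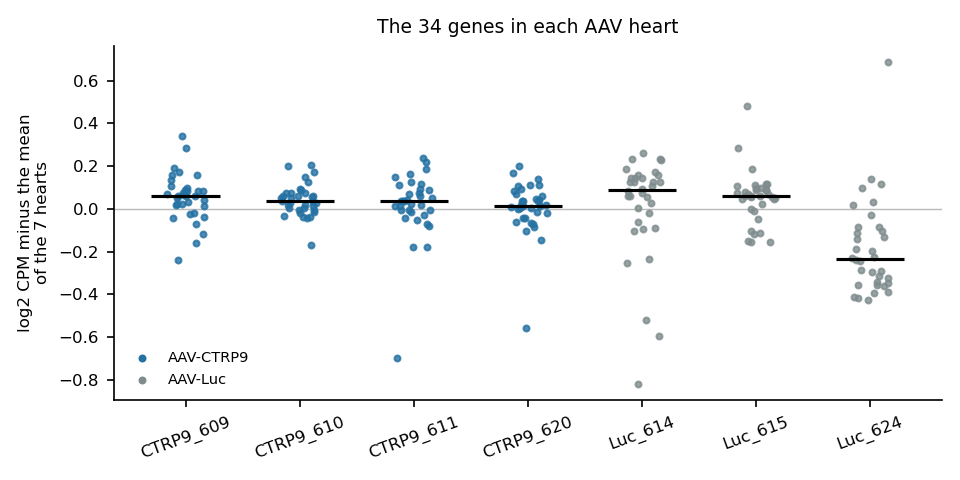
Deviation of log2 CPM from the mean of the 7 hearts for each of the 34 genes (points), by heart, with the median as a line. AAV-CTRP9 hearts are on the left and AAV-Luc hearts on the right. The median of Luc_624 was -0.23, and those of the other hearts were 0.02 to 0.09.

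Pdk4 had the largest difference of the 34 genes. It was at 355, 250, 173 and 191 CPM in AAV-CTRP9 hearts, against 264, 392 and 452 CPM in AAV-Luc hearts. The groups overlapped, since the highest AAV-CTRP9 heart lay above the lowest AAV-Luc heart, Luc_614. The log2 fold change was -0.63 (SE 0.24, unadjusted p = 0.0231, limma adjusted p = 0.53). Without Luc_614 it was -0.86 with an adjusted p of 0.0497, and over the leave-one-out fits it was between -0.86 and -0.47. Pdk4 was thus called lower only when this heart was left out. Pdk4 made up 42.3, 36.5, 28.9 and 31.3% of the summed Pdk1, Pdk2 and Pdk4 level per kilobase in AAV-CTRP9 hearts, against 35.5, 46.4 and 52.2% in AAV-Luc hearts. Pdk3 is not among the 34 genes.

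Pdp1, the catalytic phosphatase that reverses the kinases, was the only member with groups that did not overlap. It was at 18.2, 18.4, 18.6 and 15.3 CPM in AAV-CTRP9 hearts, against 13.4, 14.3 and 14.5 CPM in AAV-Luc hearts. Groups lay apart in this direction for 4.49% of all symbols and in the lower direction for 4.54%, and 1 of 34 higher and 0 of 34 lower is below those shares. The log2 fold change was 0.32 (SE 0.10, unadjusted p = 0.00747, limma adjusted p = 0.426). It was 0.18 with an unadjusted p of 0.134 once the trend with GC content and transcript length was removed. The GC content of Pdp1 was 39.2%.

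The kinases that differed between KO and WT hearts did not separate the AAV groups. Pdk1 was at 83.0, 82.4, 81.3 and 77.0 CPM in AAV-CTRP9 hearts, against 79.6, 71.5 and 81.0 CPM in AAV-Luc hearts. Pdk2 was at 276, 244, 239 and 237 CPM in AAV-CTRP9 hearts, against 274, 260 and 232 CPM in AAV-Luc hearts. Their log2 fold changes were 0.07 (SE 0.07) and -0.04 (SE 0.09). The ratio of Pdk2 to Pdk1 per kilobase was 7.69, 6.84, 6.79 and 7.10 in AAV-CTRP9 hearts, against 7.96, 8.41 and 6.62 in AAV-Luc hearts, and the groups overlapped. The KO and AAV tables were made separately, with other reference transcripts, so levels are not compared across them.

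**Figure D4:**
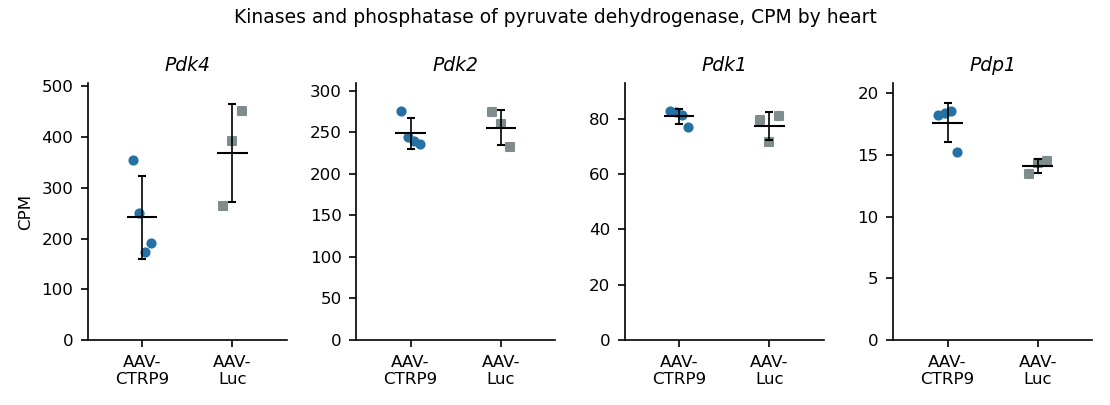
CPM of the kinase genes Pdk4, Pdk2 and Pdk1 and of the phosphatase gene Pdp1 in each AAV-CTRP9 heart (circles, n = 4) and AAV-Luc heart (squares, n = 3), with the mean and SD. The groups of Pdp1 lay apart and those of the 3 kinases overlapped.

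Among the enzymes of the cycle, Dld and Idh2 had the smallest p. Dld was at 86.8, 71.5, 81.2 and 74.2 CPM in AAV-CTRP9 hearts, against 49.7, 77.3 and 65.0 CPM in AAV-Luc hearts. The groups overlapped, and the low AAV-Luc value was that of Luc_614. The log2 fold change of Dld was 0.31 (SE 0.13, limma adjusted p = 0.563), and it was 0.14 without Luc_614. Dld has a GC content of 40.6%. Sucla2, the subunit of succinyl-CoA synthetase specific for ADP (GC content 43.2%), was at 69.2 CPM in Luc_614 and at 97.2 to 123 CPM in the other 6 hearts. Mpc1 (45.0%) was at 10.5 CPM in Luc_614 and at 18.6 to 22.5 CPM elsewhere. Suclg2 (44.4%) was highest in Luc_614, at 23.6 CPM against 15.7 to 21.2 CPM elsewhere. The log2 fold change of Sucla2 was 0.30 with all hearts, 0.08 without Luc_614 and 0.22 with the trend with GC content and length removed. That of Mpc1 was 0.30, -0.02 and 0.24 under the same settings, so its sign rests on Luc_614. For Dld it was 0.20 with the trend removed. The part of base composition in these values was not tested further.

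Idh2 was at 523, 526, 524 and 543 CPM in AAV-CTRP9 hearts, against 530, 454 and 375 CPM in AAV-Luc hearts. The AAV-CTRP9 hearts were tightly grouped, whereas the AAV-Luc hearts spread over a wide range and reached into them. The log2 fold change was 0.24 (SE 0.11, limma adjusted p = 0.572). It was 0.11 without Luc_624 (limma adjusted p = 0.569) and 0.36 without Luc_614 (limma adjusted p = 0.0588). With the trend with GC content and length removed it was 0.30 (limma adjusted p = 0.228). The NAD-dependent enzyme, made from Idh3a, Idh3b and Idh3g, had log2 fold changes of 0.15, 0.14 and 0.08, all within the spread of the hearts. The cytosolic Idh1 was at -0.07.

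The 4 succinate dehydrogenase genes had log2 fold changes of 0.07 to 0.19, fumarase and the malate dehydrogenases 0.06 to 0.10, and the 4 pyruvate dehydrogenase subunits -0.01 to 0.03. Without Luc_624, Sdha was at 0.14, whereas Sdhb was at -0.13, Sdhc at -0.07, Fh1 at -0.04, and Mdh1 and Mdh2 at -0.07 each. Pdha1, which was higher in KO hearts, was at 240, 230, 243 and 238 CPM in AAV-CTRP9 hearts, against 226, 253 and 223 CPM in AAV-Luc hearts (log2 fold change 0.03, SE 0.07). Ogdhl had a log2 fold change of -0.10 (SE 0.08) and Csl of 0.09 (SE 0.13). Several transcripts were listed for some members. The 6 transcripts of Pdp1 ranged over 0.30 to 0.32, and the 4 of Ogdh were all at 0.13. The 4 of Mpc1 ranged over 0.30 to 0.35. Transcripts of the same gene also had similar levels here, such as 1072 to 1111 CPM for Ogdh, so these ranges are no separate check. The 2 transcripts of Pdhx, at 43.1 and 10.4 CPM, had log2 fold changes of -0.01 and 0.06.

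**Figure D5:**
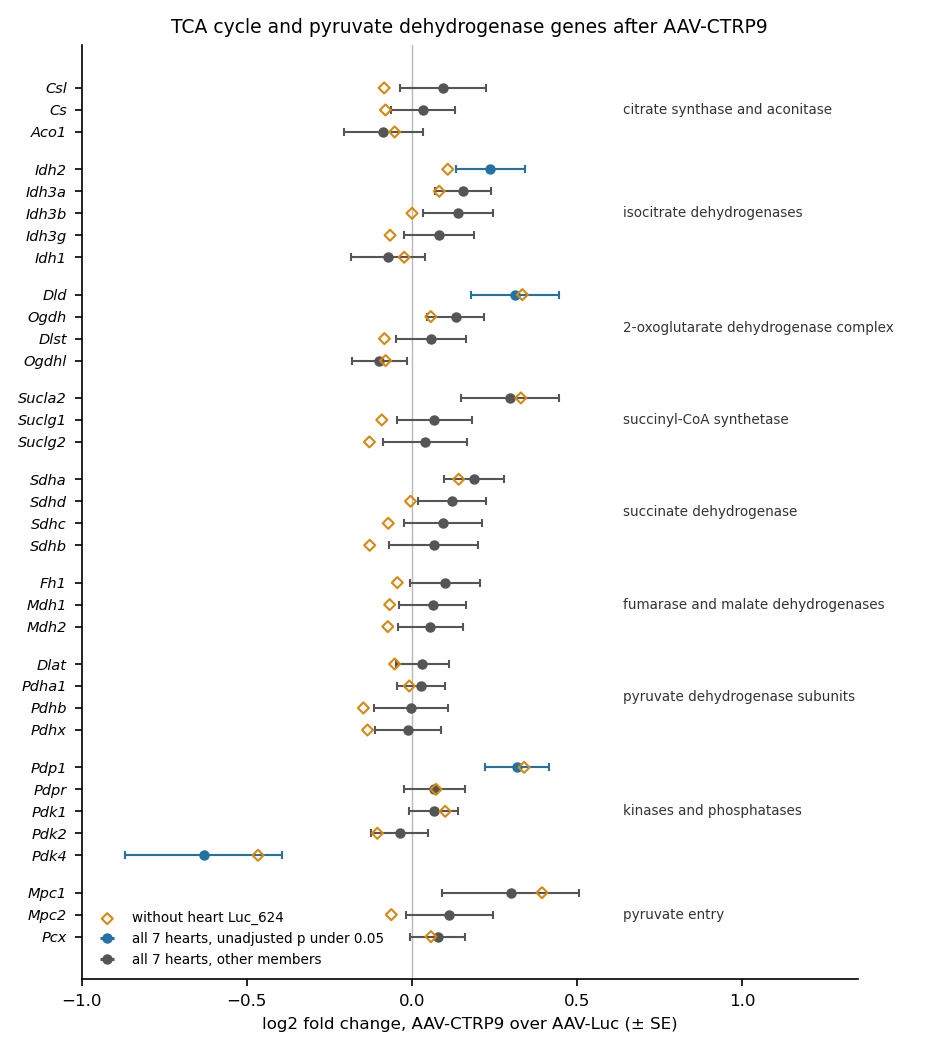
log2 fold change of AAV-CTRP9 over AAV-Luc hearts for the 34 genes by role, with SE (filled circles, blue where the unadjusted p was below 0.05), and the same value without Luc_624 (open diamonds). With all 7 hearts 27 of 34 values were above 0, and without Luc_624 12 were.

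Genes around the pathway were taken from a list of 34 for pyruvate, citrate and 2-oxo acid handling, of which 32 were measured in AAV hearts. None passed the adjusted threshold. At an unadjusted p below 0.05, 3 of the 32 were higher and none lower, beside 4.3% and 4.36% of all symbols, with a median log2 fold change of 0.05. The higher genes included Dbt and Ppm1k of branched-chain 2-oxo acid oxidation (the E2 subunit and the phosphatase that activates the complex). Ppm1k was at 20.5, 18.0, 20.6 and 17.9 CPM in AAV-CTRP9 hearts, against 12.7, 18.2 and 14.5 CPM in AAV-Luc hearts, and the groups overlapped. In KO hearts, 3 genes of this list were in the table, 2 as higher and 1 as lower, beside 3.34% and 5.33% of all symbols. Ldhb, the heart form of lactate dehydrogenase, had 5804 ± 111 normalized counts in KO and 4956 ± 268 in WT hearts. Malic enzyme 1 (Me1) had 873 ± 104 in KO and 732 ± 20.4 in WT hearts. Sdhaf1, an assembly factor of succinate dehydrogenase, had 267 ± 13.0 in KO and 324 ± 12.2 in WT hearts (SD, n = 4 and 3).

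Since Pdk4 is a PPAR target, 15 other PPAR targets were read beside it. None passed the adjusted threshold in AAV hearts. At an unadjusted p below 0.05, 4 were lower (Ehhadh, Plin2, Angptl4 and Ucp3) and 2 higher (Acadm and Acot2), beside 4.36% of all symbols lower and 4.3% higher, and the median log2 fold change was 0.05. Angptl4, an inhibitor of lipoprotein lipase, was at 11.4, 7.11, 8.14 and 9.12 CPM in AAV-CTRP9 hearts, against 9.78, 18.8 and 17.5 CPM in AAV-Luc hearts, with the same overlap through Luc_614 as Pdk4. Plin2, a lipid droplet coat protein, was at 21.8, 18.5, 19.1 and 22.1 CPM in AAV-CTRP9 hearts, against 24.2, 27.4 and 25.7 CPM in AAV-Luc hearts. Ehhadh, a peroxisomal beta-oxidation enzyme, averaged 8.29 ± 0.75 CPM in AAV-CTRP9 and 12.1 ± 1.83 CPM in AAV-Luc hearts (SD, n = 4 and 3). Acadm, the medium-chain acyl-CoA dehydrogenase of mitochondria, lay the other way, at 335, 326, 341 and 339 CPM in AAV-CTRP9 hearts, against 244, 310 and 256 CPM in AAV-Luc hearts. PPAR targets therefore did not share a direction. In KO hearts only Acot1 and Cd36 of these targets were listed, both as higher, where 3.34% of all symbols were. Macrophage markers, all 6 measured, summed to 79.4 to 87.5 CPM in AAV-CTRP9 and 116 to 121 CPM in AAV-Luc hearts, and their part in the values of Plin2, Angptl4 and Pdk4 was not tested. None of the 5 adipocyte markers was in the table.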

How the data were processed

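RNA was extracted from 14 mouse hearts, and the libraries were prepared and sequenced by BGI. The submitters' processing notes name Bowtie2, DESeq2 and the mm10 build, without versions. For KO and WT hearts the authors deposited a table of raw read counts, a signal column (the mean of the counts over size factors) and a column of summed RPKM for 2372 transcripts with p below 0.05. For AAV hearts they deposited log2 CPM values for 25990 transcripts, of which 275 had no symbol. Both tables also hold fold changes and p-values of the authors' own comparisons, which were not used. Another 14 columns with TMM-scaled and RPKM values of the same hearts were left out, since the counts were used. RPKM values given here were computed from the counts, transcript lengths and library totals. The titles of the 3 AAV-Luc samples begin with CTRP9, so they were grouped by their treatment label. KO and WT columns name the group but not the animal.

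The transcript with the highest mean was taken for each symbol. Undoing the log2 scale with a prior count of 1 gave whole reads for 100% of AAV values (relative tolerance 1e-06). The size factors and library totals of the KO table were recovered from its own deposited counts and means. AAV groups were compared with limma 3.58.1 with a trend (R 4.3.3), on log2 CPM, with Benjamini-Hochberg adjustment over 13219 symbols. KO log2 fold changes came from edgeR 4.0.16 (quasi-likelihood) on the deposited counts, with the recovered size factors and over the listed genes only, and no p is given because listing required one. With the table selected in this way, fold changes of listed genes tend to be overstated. Alternatives were edgeR and DESeq2 1.42.0 on the recovered AAV reads, scaling by library totals, a minimum mean of 1 CPM, a prior count of 0.1, limma without a trend, sums over transcripts, removal of the trend with GC content and length, other scalings of the KO table, limma-voom, and leaving out each heart. Scripts were tested on simulated data. GC content, shared 50-base stretches, positions and sequences came from GENCODE M21 on mm10.

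The 34 genes and all lists were chosen with earlier results of these data known. Values in every KO and WT heart are given for the listed members. Values in every AAV heart are given for members with an unadjusted p below 0.05 or separate groups there, and for Cs and Pdha1. AAV values of Mdh2, Pdk1, Pdk2 and list genes were added after their values were seen. Other listed members have only summary values in AAV hearts. Nothing states that the hearts were processed in separate batches, and p-values measure the spread between these hearts. The values of 1 gene of the pyruvate, citrate and 2-oxo acid list are not reported here.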

Additional observations from a re-analysis of the deposited data

Results flagged for a closer look

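In groups of 4 hearts, a heart far from the other 3 was looked for in 43 gene and group combinations, where chance flags about 1 in 20. It was found for 4 genes, all in AAV-CTRP9 hearts. Idh2 reached 543 CPM in CTRP9_620, against 523 to 526 CPM in the other 3 hearts, a gap that is small beside its level. Ogdh reached 1238 CPM in CTRP9_609, against 1118 to 1138 CPM in the others. Pdp1 was lowest in CTRP9_620, at 15.3 CPM against 18.2 to 18.6 CPM, and this heart brought the groups of Pdp1 close together. Mpc1 was lowest in CTRP9_609, at 18.6 CPM against 20.7 to 20.8 CPM. Groups of 3 hearts, including AAV-Luc and WT, were not looked at in this way.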

How the results depend on the processing

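The number of symbols past the adjusted threshold in AAV hearts was 2. It was 61 with DESeq2, 1 with library totals, 0 without the limma trend (where 1 of the 34 genes had an unadjusted p below 0.05), 0 with summed transcripts, 6 with the GC trend removed, and 0 to 150 with a heart left out, the 150 without Luc_614. The number of the 34 genes with an unadjusted p below 0.05 was 4. It was 2 with DESeq2, 2 with library totals, 1 without the trend and 1 to 6 with a heart left out. The median of the 34 genes was 0.07, and -0.052 to 0.14 with a heart left out, the lowest without Luc_624. Cs reversed to -0.015 and Pdha1 to -0.021 with library totals, Pdha1 to -0.0037 with the GC trend removed, and with a heart left out they ranged over -0.080 to 0.091 and -0.0082 to 0.084.

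As a description only, since listing already required a p below 0.05 in the same contrast, 1150 of the listed KO genes had an adjusted p below 0.05 over the listed genes, against 632 with DESeq2, 617 with upper quartile factors and 338 to 933 with a heart left out. The median of the 9 listed members was 0.20, and 0.31 with DESeq2, 0.35 with upper quartile factors, 0.24 with library totals and 0.17 to 0.22 with a heart left out. Ogdh reversed to 0.0049 with upper quartile factors. The cause of these differences was not tested beyond the shift of all listed genes given above. No paired analysis was possible because the sample labels give no replicate numbers, and the numbers in the KO and WT column names match no label. With 3 control hearts and a table limited to listed genes, the KO data cannot show which members were unchanged.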

Other observations

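The promoters of the 34 genes, 250 bases before to 50 after the start in RefSeq, were searched on both strands for AAGGTCA, a core of nuclear receptor sites. It occurred in 2 of the 31 promoters found (6.45%), those of Ogdh and Sdhd, against 5.38% of 27025 promoters.

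Coding identity between related members was lower than for Csl and Cs. It was 74.72% for Ogdhl and Ogdh, 68.43% for Pdk1 and Pdk2, 67.58% for Pdk4 and Pdk2, and 67.37% for Idh1 and Idh2. None of the 50-base stretches of Ogdh, Ogdhl, Pdk1 or Pdk2 occurs in another annotated gene, and the same holds for 24 of the 34 members in all. The members with the largest shared parts were Pdhb (30.26%, with Gm6123), Mpc1 (26.4%, mainly with Mpc1-ps) and Suclg2. Mpc1 also overlaps 4930506C21Rik on the opposite strand over 267 bases, so its values are less certain than those of most members.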
